A study of Homo sapiens with 6 samples.

Results

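The genes described here encode the chains of the integrins and of the laminins. Members were chosen by symbol alone: every listed gene whose symbol begins with ITGA, is ITGB followed by a number, or is LAMA, LAMB or LAMC followed by a number, without binding-protein genes such as ITGB1BP1 and ITGB3BP, pseudogenes and hyphenated symbols. This gave 38 of the 35793 genes listed: 18 integrin alpha, 8 integrin beta, 5 laminin alpha, 4 laminin beta and 3 laminin gamma chains. RNA was measured in cardiomyocytes differentiated from human WTC11 induced pluripotent stem cells, an established line, and sequenced at day 15. The wild-type group was WTC11 itself (3 libraries), and the STK25 knockout group came from a line on the same background in which CRISPR/Cas9 had made a homozygous knockout of STK25, a serine/threonine kinase (3 libraries). No treatment was given to either group. Both lines were kept in MTESR1 as stem cells and in RPMI 1640 with B27 as cardiomyocytes. The labels name a single knockout line, so the edit and any other difference between the lines cannot be told apart.

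Laminins are secreted cross-shaped trimers of an alpha, a beta and a gamma chain that polymerise into the sheet on which a basement membrane is built. The alpha chain carries the globular domains that cells bind, so the alpha chain made by a cell largely sets which receptors can hold its basement membrane. Integrins are the main receptors: each is a pair of an alpha and a beta chain that spans the membrane and links laminin, collagen or fibronectin outside to talin and actin inside, and in heart muscle they sit at the costameres, which anchor the contractile apparatus to the matrix.

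The deposited values are normalized counts, meaning whole counts divided by 1 factor per library. These whole counts are called reads here, and they totalled from 22443904 to 53224112 per library. STK25 itself had 8874, 6774 and 8710 normalized counts in the wild type and 3906, 3434 and 3820 in the knockout (limma log2 fold change -1.12, SE 0.19, adjusted p = 0.00903, or 0.0609 without wild-type replicate 1). Cardiomyocyte markers were abundant in both groups, their 11 genes summing to between 926463 and 973366 normalized counts per wild-type library and between 1076880 and 1115990 per knockout library, while 2 of the 11, NKX2-5 and PLN, were called lower. Wild-type replicate 2 and knockout replicate 1 stood apart from the other libraries of their genotypes in a shared way (correlation of their deviations from the genotype mean across genes 0.448). Without these 2 libraries 28.9% of all genes tested were called, in place of 12.8%, and chains and named partner genes whose call changes are given with both values. The 2 libraries were picked by their values, so leaving them out narrows the spread within genotypes and makes p-values too small.

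Of the 38 chains, 33 averaged 10 or more normalized counts over the 6 libraries and were tested. LAMA1, LAMA5 and ITGA1 were higher in the knockout, LAMA4 and LAMA2 were lower, and 28 were not past the threshold (adjusted p under 0.05, limma on log2(value + 1), Benjamini-Hochberg over all genes tested). The 5 called chains are 15.2% of those tested, beside 12.8% of all 15536 genes tested, so the share of called chains was near the background. The 3 higher chains stand beside a background of 5.97% of genes called higher, and the 2 lower chains beside 6.79% called lower. By class, all 4 tested laminin alpha chains were called, as was 1 of 17 tested integrin alpha chains, against 0 of 6 integrin beta, 0 of 3 laminin beta and 0 of 3 laminin gamma chains. At an unadjusted p under 0.05 there were 10 chains. The values of the 2 genotypes did not overlap for 10 of the 33 chains (30.3%), beside 33.4% of all genes tested. The members' median log2 fold change was 0.34, against 0.0052 for all genes, and 0.06 against -0.27 when libraries were scaled to equal totals. Under that scaling 549 genes were called higher and 1457 lower, in place of 927 and 1055. In bulk RNA a smaller number of cells of a type and less RNA per cell cannot be told apart, which holds for every chain below.

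**Figure D1:**
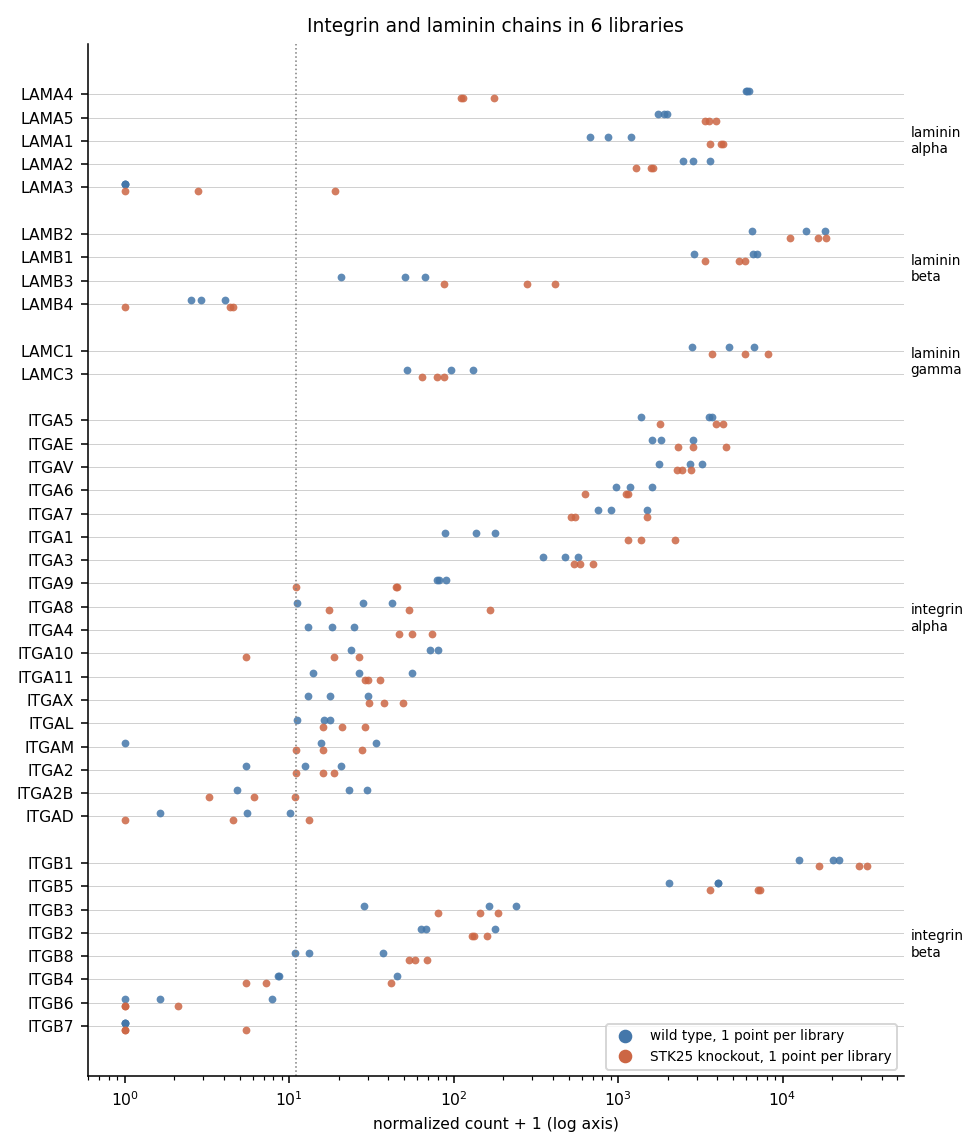
Normalized counts plus 1 (log axis) of the chains (1 of the 38 is not drawn), 1 point per library, wild type in blue and STK25 knockout in orange, ordered by mean within each class; the dotted line marks the mean of 10 needed for testing. LAMA4 in the 3 knockout libraries lies between 109 and 174, far left of the 3 wild-type points from 6002 to 6222, while ITGB1 overlaps between genotypes.

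Both falls and rises were seen among the laminin alpha chains. LAMA4 encodes a short alpha chain, lacking the domain used for polymerisation, that is typical of vascular and muscle basement membranes. It had 6002, 6222 and 6098 normalized counts in the wild-type libraries and 113, 109 and 174 in the knockout libraries. The 3 wild-type values were close together and every knockout value was far below them. The mean went from 6107 ± 110 to 132 ± 36.4 (SD, n = 3 per genotype), a 46.2-fold fall (limma log2 fold change -5.55, SE 0.24, adjusted p = 5.66e-05). LAMA4 (ENSG00000112769.18) occupies bases 112108760 to 112254939 of chromosome 6, minus strand. Positions are those of GENCODE 29 for GRCh38.

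LAMA2 encodes the alpha chain of the classical muscle laminin (merosin), which binds dystroglycan and integrins of the ITGA7 type and whose loss causes a congenital muscular dystrophy. It had 2868, 2469 and 3630 normalized counts in the wild type and 1577, 1624 and 1278 in the knockout, so the groups did not overlap. The mean fell from 2989 ± 589 to 1493 ± 188 (SD, n = 3 per genotype; limma log2 fold change -0.99, SE 0.22, adjusted p = 0.0231). Dropping 1 library at a time ended this call in 4 of 6 cases: the adjusted p was 0.0951 and 0.0963 when wild-type replicate 1 or 3 was dropped, and 0.0538 and 0.101 when knockout replicate 2 or 3 was dropped. In the same order, the log2 fold changes of LAMA2 in these 4 fits were -1.01, -0.84, -1.06 and -0.88. Over all genes 796, 916, 1292 and 962 were called there, in place of 1982. LAMA2 (ENSG00000196569.12) occupies bases 128883141 to 129516569 of chromosome 6, plus strand, on the same chromosome as LAMA4.

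LAMA1, whose chain builds the first basement membranes of the embryo and later those of some epithelia, moved the other way. It had 867, 677 and 1203 normalized counts in the wild type and 4328, 4194 and 3626 in the knockout. All 3 knockout libraries exceeded the highest wild-type library, and the mean rose 4.42-fold from 916 ± 266 to 4049 ± 373 (SD, n = 3 per genotype; limma log2 fold change 2.18, SE 0.25, adjusted p = 0.00168). LAMA1 (ENSG00000101680.14) occupies bases 6941744 to 7117814 of chromosome 18, minus strand. An annotated antisense transcript, AP002409.1, shares 1641 exonic bases with it.

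LAMA5 encodes a widespread alpha chain of epithelial and vascular basement membranes that pluripotent stem cells also make. Its normalized counts were 1980, 1735 and 1893 in the wild type and 3924, 3560 and 3383 in the knockout. The groups did not overlap, and the mean rose 1.94-fold from 1869 ± 124 to 3622 ± 276 (SD, n = 3 per genotype; limma log2 fold change 0.95, SE 0.17, adjusted p = 0.0119). The call was lost when wild-type replicate 1 or 3 was dropped (adjusted p = 0.0597 and 0.0540) and when libraries were scaled to equal totals (adjusted p = 0.0688). LAMA5 (ENSG00000130702.15) occupies bases 62307955 to 62367312 of chromosome 20, minus strand, and its exons share 244 bases with ADRM1 on the opposite strand. ADRM1, a proteasome subunit gene, rose alongside it, with means of 6379 ± 463 and 12105 ± 1641 (SD, n = 3 per genotype; adjusted p = 0.0184 with limma), and whether reads were shared between the pair was not tested. LAMA3, the alpha chain of the epithelial anchoring laminin, had no read in any wild-type library and 0, 16 and 2 reads in the knockout libraries, too few to test.

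The starts of the called chains other than LAMA1 are shown here to set their base composition side by side. LAMA1, called higher, had no match by symbol among the promoters used. The sequences, from RefSeq on GRCh38.p14, run 5′ to 3′ on the gene's strand from 250 bases before the start site to 50 after it, and are shown for the called chains that the table of promoters holds (26 of the 38 chains matched it by symbol). Capitals mark matches to 5 short motifs searched on both strands: the GC box GGGCGG, the core of TEAD sites GGAATG, the core promoter element TATAAA, the dimer site of AP-1 TGANTCA, and the site of the GATA factors AGATAA.
LAMA4, chr6:112254518-112254817, minus strand: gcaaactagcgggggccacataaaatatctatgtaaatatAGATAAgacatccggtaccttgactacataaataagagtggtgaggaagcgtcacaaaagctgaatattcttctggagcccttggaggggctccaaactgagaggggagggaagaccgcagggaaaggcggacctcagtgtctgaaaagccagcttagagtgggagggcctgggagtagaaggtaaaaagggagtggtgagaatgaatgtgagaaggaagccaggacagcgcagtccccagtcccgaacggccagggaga
LAMA2, chr6:128882888-128883187, plus strand: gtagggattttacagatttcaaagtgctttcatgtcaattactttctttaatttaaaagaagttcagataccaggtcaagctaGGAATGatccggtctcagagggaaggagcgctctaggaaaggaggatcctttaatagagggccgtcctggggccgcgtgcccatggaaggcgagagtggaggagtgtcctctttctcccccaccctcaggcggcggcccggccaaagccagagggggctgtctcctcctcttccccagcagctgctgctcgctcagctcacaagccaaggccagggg
LAMA5, chr20:62367263-62367562, minus strand: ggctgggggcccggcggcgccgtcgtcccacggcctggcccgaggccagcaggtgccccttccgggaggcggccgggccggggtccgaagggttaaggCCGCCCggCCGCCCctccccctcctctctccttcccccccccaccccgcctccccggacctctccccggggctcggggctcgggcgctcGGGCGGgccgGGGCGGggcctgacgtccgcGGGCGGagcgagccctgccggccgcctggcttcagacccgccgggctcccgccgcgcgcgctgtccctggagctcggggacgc
ITGA1, chr5:52787666-52787965, plus strand: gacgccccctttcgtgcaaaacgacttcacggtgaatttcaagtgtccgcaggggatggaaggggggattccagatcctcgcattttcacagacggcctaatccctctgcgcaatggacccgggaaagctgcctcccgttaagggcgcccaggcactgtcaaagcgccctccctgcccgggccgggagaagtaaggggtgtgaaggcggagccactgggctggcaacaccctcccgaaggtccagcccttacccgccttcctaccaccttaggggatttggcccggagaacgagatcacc
The LAMA5 window is 82.7% G or C with 41 CG dinucleotides and holds 5 GC boxes. The LAMA4 window is 51.3% G or C with 8 CG dinucleotides and holds 1 match to AGATAA at positions -210 to -205, counting the start as 0. In the LAMA2 window, 55.3% G or C with 10 CG dinucleotides, 1 match to GGAATG begins at position -167. No match to the 5 motifs lies in the ITGA1 window, which is 61.7% G or C with 19 CG dinucleotides. Over 27305 promoters of the same length the median was 58.3% G or C and 14 CG dinucleotides. The motifs are common: 44.6% of those promoters hold GGGCGG, 14.0% GGAATG, 12.0% TATAAA, 10.5% AGATAA and 7.76% TGANTCA. None of the matches shown overlap, and a match is a description of the letters only.

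Set against each other per kilobase of the longest annotated transcript, the alpha chains changed places. LAMA4 made up 62.4%, 66.8% and 58.7% of the summed laminin alpha value in the wild-type libraries and 1.84%, 1.85% and 3.31% in the knockout libraries. The share of LAMA1 was 5.69%, 4.59% and 7.30% in the wild type and 44.3%, 44.8% and 43.5% in the knockout. For LAMA5 the shares were 11.8%, 10.7% and 10.4% against 36.5%, 34.5% and 36.8%. LAMA1 and LAMA5 together thus went from 16.8% ± 1.36 to 80.2% ± 0.74 of the sum (SD, n = 3 per genotype; exact two-sided permutation p = 0.1, the smallest that 3 against 3 libraries allow). The share of LAMA2 overlapped between genotypes, 20.6% ± 2.86 in the wild type and 17.4% ± 1.10 in the knockout (SD, n = 3 per genotype; exact permutation p = 0.2), although its normalized count fell. This overlap depends on the length used: the difference of -3.12 percentage points became -6.91 with the union of annotated exons and -8.99 with no length normalization, both without overlap (exact permutation p = 0.1 for each). The summed alpha value per kilobase was 1493 ± 85.1 in the wild type and 882 ± 70.3 in the knockout (SD, n = 3 per genotype; ratio 0.591, no overlap, exact permutation p = 0.1). Shares of 38 chains and 10 sums and ratios were compared in this way, and the lowest p after Benjamini-Hochberg adjustment over these 48 exact tests was 0.229.

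**Figure D2:**
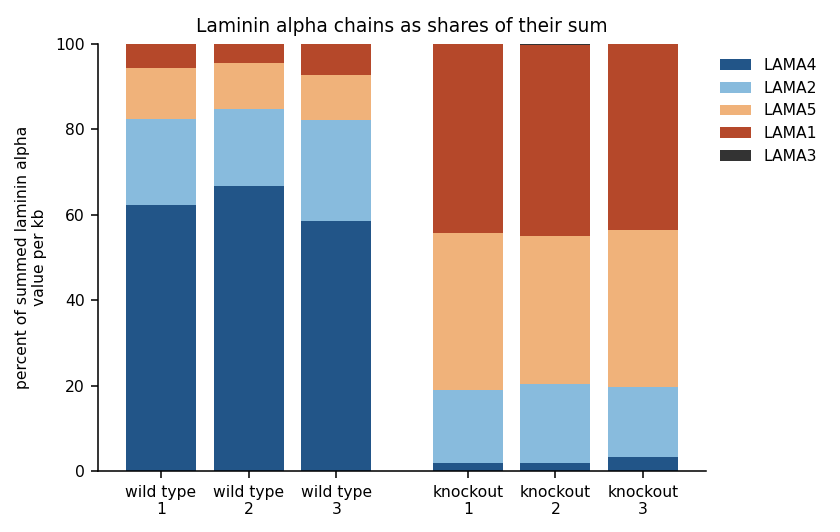
Laminin alpha chains as percent of their summed normalized count per kilobase, 1 stacked bar per library (LAMA4 dark blue, LAMA2 light blue, LAMA5 light orange, LAMA1 dark orange, LAMA3 black). LAMA4 fills 58.7% to 66.8% of each wild-type bar and at most 3.31% of each knockout bar, where LAMA1 and LAMA5 fill about 80%.

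The beta and gamma chains, with which every alpha chain must assemble, were abundant in both genotypes. LAMB2, the beta chain of mature muscle and synaptic laminins, had 13917, 6538 and 18070 normalized counts in the wild type and 11042, 18443 and 16417 in the knockout (limma log2 fold change 0.34, SE 0.39, adjusted p = 0.634). LAMB1, the more widespread beta chain, had 6620, 2912 and 7039 against 3372, 5936 and 5399 (limma log2 fold change -0.11, SE 0.38, adjusted p = 0.895). LAMC1, the gamma chain of most laminins, had 4714, 2832 and 6697 against 3738, 8112 and 5945 (limma log2 fold change 0.34, SE 0.38, adjusted p = 0.631). All 3 overlapped between genotypes, and in all 3 the lowest library of each genotype was one of those that stood apart. LAMC1 made up 96.2% ± 0.38 of the gamma value per kilobase in the wild type and 97.7% ± 0.25 in the knockout (SD, n = 3 per genotype; exact permutation p = 0.1). Within the beta chains, the share of LAMB1 was 29.9% ± 2.14 in the wild type and 23.5% ± 0.56 in the knockout without overlap (SD, n = 3 per genotype; exact permutation p = 0.1). The ratio of the alpha to the gamma sum was 2.36, 3.81 and 1.81 in the wild type and 1.93, 0.858 and 1.04 in the knockout, which overlap (exact permutation p = 0.2).

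LAMB3, the beta chain of the epithelial anchoring laminin, is named because its call changed with the setting. It had 19.6, 49.5 and 65.7 normalized counts in the wild type and 86.4, 412 and 277 in the knockout. The groups did not overlap, but the log2 fold change of 2.39 (SE 0.68) missed the threshold with limma (adjusted p = 0.0584). It passed in 7 of 20 alternative fits, among them edgeR (adjusted p = 0.0481), DESeq2 (adjusted p = 0.0012) and the fit without knockout replicate 1 (adjusted p = 0.0151). Without both libraries that stood apart its log2 fold change was 3.19 (limma adjusted p = 0.00414). LAMC3, a gamma chain, had between 51.0 and 130 normalized counts in all 6 libraries and was not past the threshold. LAMB4 had at most 4 reads in any library.

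Integrin alpha chains divide by what they bind, and the collagen binders held the 1 integrin that was called. ITGA1 pairs with ITGB1 to form a receptor for collagen and laminin that is found on smooth muscle and other mesenchymal cells. It had 136, 87.6 and 176 normalized counts in the wild type and 1147, 2225 and 1375 in the knockout. Every knockout library was far above the highest wild-type library, and the mean rose 11.9-fold from 133 ± 44.3 to 1582 ± 568 (SD, n = 3 per genotype; limma log2 fold change 3.56, SE 0.36, adjusted p = 0.0011). ITGA1 (ENSG00000213949.8) occupies bases 52787896 to 52959210 of chromosome 5, plus strand. PELO, a ribosome rescue factor gene on the same strand, shares 475 exonic bases with ITGA1. PELO went from a mean of 1665 ± 69.6 up to 4542 ± 289 (SD, n = 3 per genotype; limma log2 fold change 1.45, adjusted p = 0.00189), and how far the authors' counting split reads between the pair was not tested. The 3 other collagen-binding chains were low: ITGA2 had 4.47 to 19.6 normalized counts over all 6 libraries, ITGA11 had 13.0 to 54.9, and ITGA10 had 22.7, 70.8 and 79.1 against 25.4, 4.46 and 17.8. None of these 3 was past the threshold.

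The laminin-binding alpha chains ITGA3, ITGA6 and ITGA7 were not past the threshold. ITGA6 had 1184, 966 and 1611 normalized counts in the wild type and 632, 1155 and 1119 in the knockout (limma log2 fold change -0.39, SE 0.31, adjusted p = 0.472). ITGA7, the chain typical of skeletal and heart muscle, had 902, 1488 and 754 against 1502, 517 and 547 (limma log2 fold change -0.42, SE 0.45, adjusted p = 0.615). Its highest library in each genotype was the one that stood apart, and without those 2 libraries its log2 fold change was -0.63 (limma adjusted p = 0.0432). ITGA3 had 471, 350 and 568 against 589, 698 and 539 (limma log2 fold change 0.41, adjusted p = 0.359). The values of all 3 chains overlapped between genotypes, and whether their changes differ from those of the laminin alpha chains was not tested.

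Among chains that bind the RGD sequence of fibronectin and vitronectin, the abundant ones overlapped between genotypes and were not past the threshold. ITGAV had 2717, 1764 and 3225 normalized counts in the wild type and 2287, 2760 and 2431 in the knockout (limma log2 fold change -0.0037, SE 0.25, adjusted p = 0.996). ITGA5, the fibronectin receptor, had 3547, 1382 and 3702 against 1809, 4370 and 3948 (limma log2 fold change 0.26, SE 0.47, adjusted p = 0.780). Its low value in each genotype was again the library that stood apart. ITGA8 and ITGA2B, the platelet chain, had at most 165 and 28.7 normalized counts in any library and were not past the threshold. Without the 2 libraries that stood apart the log2 fold change of ITGA8 went from 1.18 to 2.41 (limma adjusted p = 0.445 and 0.0362).

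ITGA4 and ITGA9, close relatives that bind VCAM1 and fibronectin, did not overlap between genotypes and lay in opposite directions. ITGA4 had 12.1, 23.6 and 17.2 normalized counts in the wild type and 45.8, 72.4 and 55.1 in the knockout (limma log2 fold change 1.68, SE 0.49, adjusted p = 0.0618). ITGA9 had 89.1, 80.7 and 78.5 against 44.5, 10.03 and 43.5 (limma log2 fold change -1.57, SE 0.61, adjusted p = 0.144). Neither was past the threshold, but without the 2 libraries that stood apart ITGA4 had a log2 fold change of 2.06 and was called (limma adjusted p = 0.0259).

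ITGAE, known as the E-cadherin receptor of lymphocytes in epithelia, was by far the most abundant of the chains named for leukocytes. It had 1834, 2859 and 1616 normalized counts in the wild type and 4530, 2299 and 2862 in the knockout (limma log2 fold change 0.60, SE 0.32, adjusted p = 0.269). It was called without the 2 libraries that stood apart, with a log2 fold change of 0.57 (limma adjusted p = 0.0283). The other leukocyte chains had at most 12.3 (ITGAD, not tested), 28.0 (ITGAL), 32.8 (ITGAM) and 48.3 (ITGAX) normalized counts, and ITGB2, their beta partner, had 66.5, 177 and 61.9 against 158, 132 and 129. None of these others was past the threshold. The 8 blood and platelet markers summed to between 157 and 519 normalized counts in the wild-type libraries and between 307 and 512 in the knockout libraries. HASPIN on the opposite strand shares 427 exonic bases with ITGAE and had means of 91.3 and 41.9 normalized counts.

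The integrin beta chains were led by ITGB1, the partner of most alpha chains and the main beta chain of muscle. It had 20192, 12659 and 22001 normalized counts in the wild type and 16582, 32416 and 29219 in the knockout (limma log2 fold change 0.49, SE 0.33, adjusted p = 0.388). ITGB5, which pairs with ITGAV, had 4053, 2037 and 4042 against 3616, 7249 and 7115 (limma log2 fold change 0.83, SE 0.37, adjusted p = 0.198). In both genes the library that stood apart was the lowest of its genotype, and the knockout value of that library lay within the wild-type range. Without those 2 libraries ITGB1 had a log2 fold change of 0.55 (limma adjusted p = 0.0111) and ITGB5 of 0.83 (limma adjusted p = 0.00138). Per kilobase, ITGB1 made up 85.4% ± 1.08 of the beta value in the wild type and 82.7% ± 0.64 in the knockout, and ITGB5 13.4% ± 1.31 and 16.3% ± 0.83 (SD, n = 3 per genotype; exact permutation p = 0.1 for each). ITGB8, which activates latent TGF-beta, had 36.3, 9.90 and 12.1 against 52.1, 68.0 and 56.9 normalized counts without overlap (limma log2 fold change 1.77, SE 0.59, adjusted p = 0.0927). ITGB3 and ITGB4 ranged from 27.4 to 237 and from 4.46 to 44.2 over the 6 libraries, and ITGB6 and ITGB7 had at most 9 and 4 reads in any library.

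**Figure D3:**
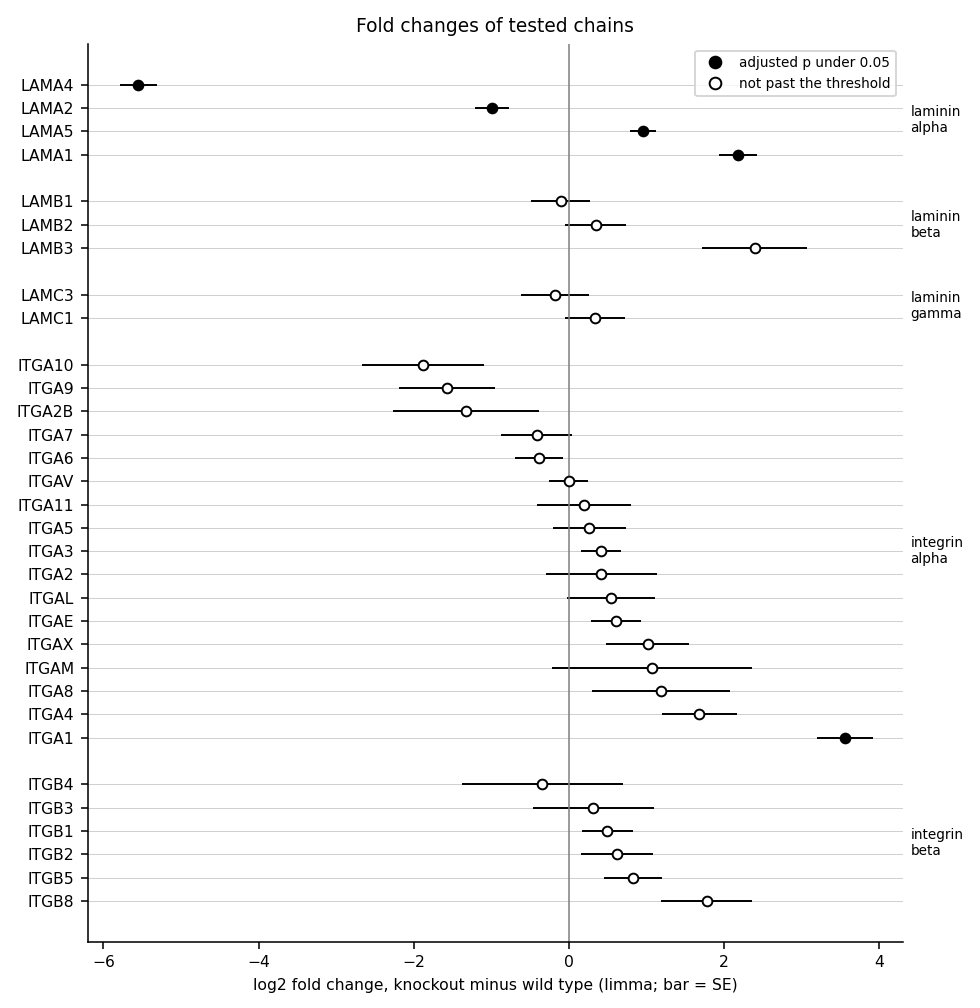
Log2 fold change, knockout minus wild type, of the tested chains by class (1 of the 33 is not drawn), with limma's SE as bars; filled points have an adjusted p under 0.05. All 4 tested laminin alpha chains are filled, from -5.55 for LAMA4 to 2.18 for LAMA1, and ITGA1 at 3.56 is the 1 filled integrin.

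Per kilobase the order of the abundant chains was similar at the top and different below. ITGB1 had the highest mean in both genotypes, with 4832 normalized counts per kilobase in the wild type and 6890 in the knockout, followed by LAMB2 with 2263 and 2697. LAMA4 came after LAMB1 in the wild type, with 933 and 958, and in the knockout it had 20.2, below LAMB3 with 60.1. LAMA1 went from 88.3 to 390 per kilobase, passing LAMA2, which went from 309 to 154. The summed integrin alpha value was 2112 ± 161 per kilobase in the wild type and 2562 ± 65.0 in the knockout without overlap (SD, n = 3 per genotype; exact permutation p = 0.1), a log2 ratio of 0.28 that became -0.0049 with equal totals. ITGA1 rose from 0.579% ± 0.153 to 5.73% ± 2.01 of that sum (SD, n = 3 per genotype; exact permutation p = 0.1), a difference of 5.16 percentage points that became 10.4 with no length normalization. ITGAE, not past the threshold, went from 545 to 837 normalized counts per kilobase. Its share of the integrin alpha sum was 26.3% ± 10.5 in the wild type and 32.6% ± 11.3 in the knockout, which overlap (SD, n = 3 per genotype, exact permutation p = 0.5).

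The libraries that stood apart touched many chains in the same way. Wild-type replicate 2 and knockout replicate 1 were both the lowest of their genotypes for 14 of the 33 tested chains (42.4%), beside 30.7% of all genes tested, and both the highest for 6 chains (18.2%), beside 29.6%. The 14 include ITGB1, ITGB5, LAMB1, LAMB2, LAMC1, ITGA5, ITGA6, ITGAV and ITGA1, and the 6 include ITGA7 and ITGAE. Transcript length moved with this pattern: genes with transcripts of up to 2264 bases had median deviations of 0.32 in wild-type replicate 2 and 0.30 in knockout replicate 1, while genes with transcripts of 5341 bases or more had -0.16 and -0.05. In knockout replicate 3 the longer group had -0.04, so for long transcripts knockout replicates 1 and 3 were alike. Of the 33 tested chains 18 are in that longer group. The chains' own median deviations were -0.26 in wild-type replicate 2 and -0.12 in knockout replicate 1. The part of length in the chains' values was not tested beyond removing its trend, after which 7 of 33 chains (ITGA4 and LAMB3 beside the 5) and 18.2% of all genes with a length were called. Because wild-type replicate 2 and knockout replicate 1 were picked by their values, p-values without them are too small. LAMA4, LAMA1, LAMA2, LAMA5 and ITGA1 were all called without the 2 libraries, with log2 fold changes of -5.44, 1.93, -1.16, 0.84 and 3.49. There 12 of 33 chains (36.4%) and 28.9% of all genes passed, the other 7 chains being ITGB1, ITGB5, ITGAE, ITGA7, ITGA4, ITGA8 and LAMB3.

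**Figure D4:**
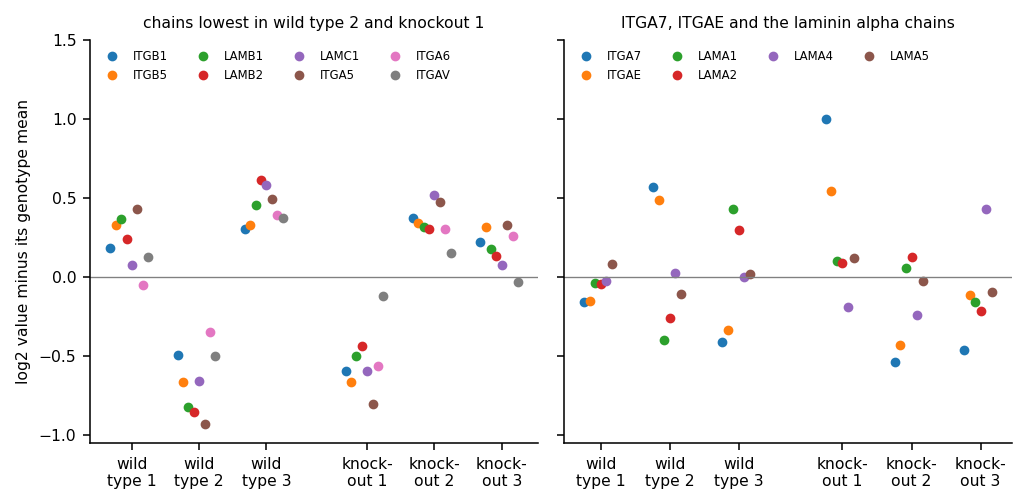
Log2(value + 1) of a chain in each library minus its genotype's mean, 1 color per chain; left, 8 abundant chains lowest in wild-type replicate 2 and knockout replicate 1, and right, ITGA7, ITGAE and the 4 tested laminin alpha chains. The left points in those 2 libraries are all below 0, while ITGA7 reaches 1.00 in knockout replicate 1.

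Proteins that bind the inner face of integrins were examined as a list of 40 adaptors and kinases, of which 39 were tested: 5 were higher, 1 was lower and 33 were not past the threshold (median log2 fold change 0.23, or -0.05 with equal totals). The 6 are 15.4% of those tested, near the 12.8% of all genes; without the libraries that stood apart 15 were higher and 4 lower, beside 28.9% of all genes called. PTK2B, the calcium-sensitive relative of focal adhesion kinase, had 193, 203 and 115 normalized counts in the wild type and 2822, 5105 and 4955 in the knockout, with no overlap. Its log2 fold change was 4.64 (SE 0.33, limma adjusted p = 0.000261). PTK2, focal adhesion kinase itself, overlapped between genotypes (limma log2 fold change 0.17, adjusted p = 0.827). RSU1 and LIMS2, which belong to the ILK, PINCH and parvin complex, rose by 1.23 and 1.06 on the log2 scale (limma adjusted p = 0.00378 and 0.00665), and PARVB, a parvin, fell by 1.20 (limma adjusted p = 0.0418, or 0.0615 without the libraries that stood apart). ILK itself had a log2 fold change of 0.02 (limma adjusted p = 0.964). ITGB1BP1 and ITGB1BP2 (melusin, a muscle protein that binds the ITGB1 tail) rose by 1.23 and 1.11 (limma adjusted p = 0.0204 and 0.0124). TLN1 (talin), FERMT2 (kindlin) and VCL (vinculin), which link integrins to actin, had log2 fold changes of 0.70, 0.63 and 0.83 and were not past the threshold (limma adjusted p = 0.0847, 0.0879 and 0.326). Without the libraries that stood apart these 3 were called: TLN1 at 0.58 with a limma adjusted p of 0.0122, FERMT2 at 0.49 with 0.0184 and VCL at 0.72 with 0.00609.

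Of 42 genes for other basement membrane proteins and integrin ligands, 38 were tested: 7 were higher, 4 were lower and 27 were not past the threshold (median log2 fold change 0.26, or -0.02 with equal totals). The 7 are 18.4% of those tested and the 4 are 10.5%, beside 5.97% of all genes called higher and 6.79% lower. Without the libraries that stood apart 11 were higher and 12 lower, beside 14.9% and 14.0% of all genes. The nidogen, perlecan and collagen IV genes named here were not past the threshold: NID1 (nidogen) had a log2 fold change of -0.53, HSPG2 (perlecan) 0.48, COL4A1 -0.34 and COL4A2 -0.60 (limma adjusted p = 0.622, 0.243, 0.458 and 0.262), nor was the integrin ligand FN1 at 1.30 (limma adjusted p = 0.105). Without the libraries that stood apart 4 of these 5 were called: NID1 at -0.71, COL4A1 at -0.49, COL4A2 at -0.75 and FN1 at 1.05 (limma adjusted p = 0.0180, 0.0356, 0.00546 and 0.00787). NID2, a nidogen with a wild-type mean of 11590 against 2937 for NID1, and AGRN (agrin) were not past it either. Their log2 fold changes were -0.91 and -0.85 (limma adjusted p = 0.450 and 0.147). Without the libraries that stood apart they were -0.94 and -1.10 and called (limma adjusted p = 0.00337 and 0.0155). COL1A2, a chain of fibrillar collagen, had 9072, 4237 and 9232 normalized counts in the wild type and 132, 376 and 212 in the knockout (limma log2 fold change -5.01, adjusted p = 0.000616). VCAM1, a ligand of ITGA4, had 10785, 5775 and 10164 against 329, 1164 and 1155 (limma log2 fold change -3.49, adjusted p = 0.0047). FREM1 and FREM2, of the Fraser complex under epithelia, fell by 4.39 and 2.46 (limma adjusted p = 0.00344 and 0.00578), while FRAS1 of the same complex rose by 1.36 (limma adjusted p = 0.0106). NTN4, a laminin-related netrin, rose by 3.53, EDIL3, an RGD ligand, by 3.83 and SMOC2, a secreted calcium-binding protein, by 5.20 (limma adjusted p = 0.00871, 0.0136 and 0.0143). SMOC2 had 9, 0 and 4 reads in the wild type, and its log2 fold change was 6.19 without wild-type replicate 1 and 4.26 without wild-type replicate 2. Over the 20 alternative fits the log2 fold changes ran from 3.36 to 6.47 for SMOC2, from 3.24 to 4.67 for EDIL3, from 3.05 to 4.12 for NTN4, from -5.09 to -3.93 for FREM1 and from -3.80 to -2.89 for VCAM1. COL3A1, SPP1 (osteopontin) and MFGE8 rose by 2.61, 2.08 and 1.07 (limma adjusted p = 0.0172, 0.0362 and 0.0148).

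Of 9 laminin receptors other than integrins, 3 were called lower (33.3%, beside 6.79% of all genes called lower) and 6 were not past the threshold. SDC1 and GPC1, heparan sulfate proteoglycans, and BCAM, a receptor for LAMA5-containing laminins, fell by 1.87, 1.44 and 1.23 on the log2 scale (limma adjusted p = 0.00993, 0.0167 and 0.0278). The remaining 6 include DAG1 (dystroglycan), with a log2 fold change of 0.25 (limma adjusted p = 0.660). Of 17 enzymes that build the sugar by which dystroglycan holds laminin, 16 were tested and 2 were called lower (12.5%, beside 6.79% of all genes), among them RXYLT1, which fell by 1.11 (limma adjusted p = 0.00877). Without the libraries that stood apart 4 of the 9 receptors and 5 of the 16 enzymes were lower, beside 14.0% of all genes. Of the 22 partner genes called over the 4 lists, 7 stayed called whichever of the 6 libraries was dropped: RSU1, PTK2B, FREM1, FREM2, VCAM1, NTN4 and COL1A2. The other 15 lost the call when some library was dropped, PARVB with any of the 6, SPP1 and BCAM with any of 5.

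**Figure D5:**
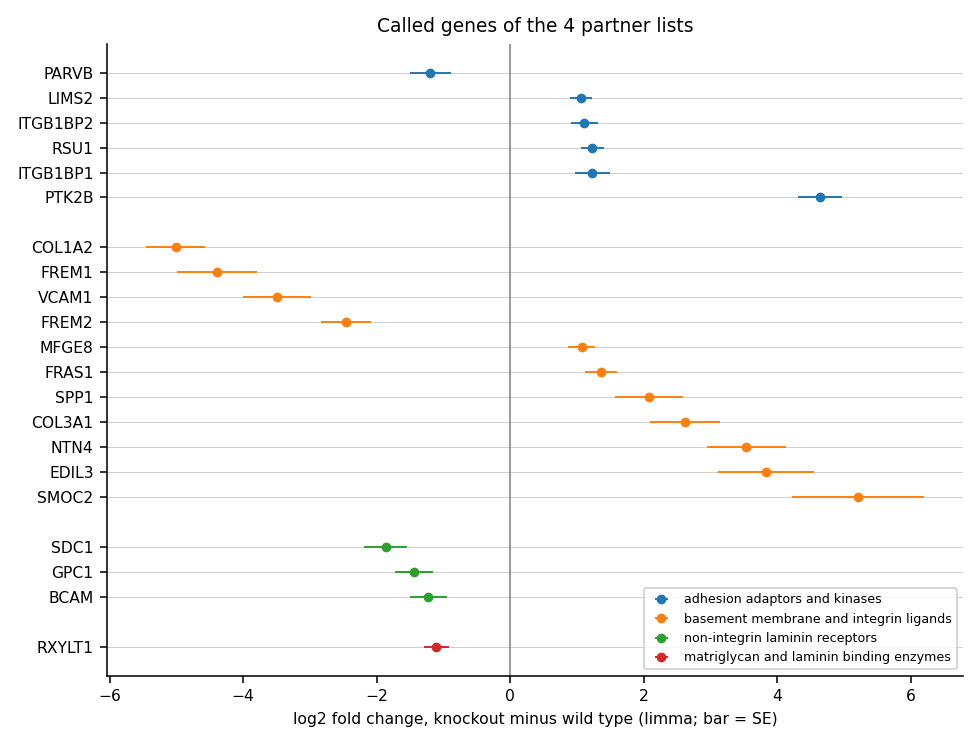
Log2 fold change, knockout minus wild type, with limma's SE as bars, of called genes of the 4 partner lists (1 of the 22 is not drawn). Values run from -5.01 for COL1A2 to 5.20 for SMOC2; all receptors and enzymes drawn lie left of 0.

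Markers of other cell types were summed in each library, and their calls stand beside the 5.97% of all genes called higher and the 6.79% called lower. The 7 smooth muscle markers summed to between 93629 and 105227 normalized counts per wild-type library and between 504372 and 551326 per knockout library, and 5 of the 7 were called higher, or 3 with equal totals, MYH11 among them. The 10 fibroblast and stromal markers summed to between 13007 and 26601 in the wild type and between 8520 and 17310 in the knockout, which overlap, with 4 called higher and COL1A2 called lower. Epicardial and mesothelial markers (8 genes) summed to between 16232 and 17752 against between 7062 and 10117, with 1 called in each direction. Epithelial and endoderm markers (8 genes) summed to between 113867 and 120606 against between 276843 and 308446, with 2 called higher, or 1 with equal totals, and 1 lower. Neural markers (7 genes) summed to between 4560 and 7867 against between 7080 and 16921, which overlap, and 3 were called higher. A sum mostly follows its most abundant genes and can part from the median of its list. The median log2 fold changes of tested markers were 1.31 for smooth muscle and 1.55 for fibroblast and stromal markers. They were 0.16 for epicardial and mesothelial, 0.013 for epithelial and endoderm and 2.99 for neural markers. With equal totals the epicardial and epithelial medians were -0.10 and -0.26. Endothelial markers (10 genes) summed to between 187 and 497 against between 1198 and 1307. ESAM was the 1 called, with 16.6, 5.33 and 18.5 against 754, 614 and 769 normalized counts. KDR had 278, 67.8 and 342 against 369, 415 and 306 and EMCN had 21.1, 34.3 and 11.5 against 92.8, 39.0 and 50.7, neither past the threshold. CDH5, TIE1 and ERG, the 3 of the 10 with at most 3 reads in every library, had at most 1.51 normalized counts. Of the 10 endothelial markers 5 were tested, with a median log2 fold change of 1.44, and 4 of these were not past the threshold. The part of such cells in the LAMA4, LAMA1, LAMA5 and ITGA1 values was not tested.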

How the data were processed

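The deposited table holds a normalized count, a signal, for each gene symbol in 6 libraries, 3 per genotype, and 0 columns were left unused. Per the submitters' processing notes bcl2fastq 2.19, kallisto 0.44.0, DESeq2 1.28.1 and GRCh38 were used; the annotation and the strand setting are not given in the sources used here. Per the labels' protocols, RNA was column-purified and DNase-treated, and the Clontech Ultra Low v4 kit and NexteraXT served for cDNA and library preparation. In the deposited signal columns 100% of values were whole multiples of 1 step per library (tolerance 0.001 reads). Whole counts, called reads here, were recovered by dividing by that step. Whether they had been rounded from kallisto's estimates was not tested. The labels call the libraries biological replicates but do not say how the cultures were separated, so p-values measure the spread between these samples. Replicates all differed by more than sampling noise, with a chi-square of 20.0 to 391 per degree of freedom.

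Genes with a mean of at least 10 (15536) were tested with limma 3.58.1 in R 4.3.3 on log2(value + 1) with a trend and no covariate, with Benjamini-Hochberg adjustment over all of them and a threshold of 0.05. Adding 1 before the log understates the change of low genes. Sums and shares were compared by exact two-sided permutation tests. Transcript lengths and positions are from GENCODE 29 (15179 of the tested genes, 97.7%, and all 38 members matched by symbol). Reads of overlapping genes could not be reassigned. Same-numbered wild-type and knockout libraries were not treated as pairs in the main fit. Their deviations from the genotype mean correlated at -0.23, -0.40 and 0.17. Deviations from a mean of 3 libraries constrain each other, so these values cannot show whether the numbers pair the libraries.

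The members and the partner and marker lists were chosen with earlier results of these data known. Chains described in full are those called and those with a mean of at least 1000. The values of 1 chain and 1 partner gene are counted but not reported here. Each partner list otherwise names its called genes, and TLN1, ILK, FERMT2, VCL, PTK2, NID1, HSPG2, COL4A1, COL4A2 and FN1. LAMB3, PELO, ADRM1, ESAM, KDR, EMCN, MYH11, NKX2-5, PLN, NID2, AGRN, the lower chains and the called list genes beyond the 6 with the largest change were named after their values were seen. Alternatives were pseudocounts of 0.1 and 10, other filters, scalings and eBayes settings, a replicate block, edgeR 4.0.16 and DESeq2 1.42.0 on recovered reads, each library left out in turn and other length measures. Leaving out the 2 libraries that stand apart and removing the length trend were added after the data were seen.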

Additional observations from a re-analysis of the deposited data

How the results depend on the processing

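LAMA4, LAMA1 and ITGA1 were called in all 20 alternative fits, with adjusted p-values of at most 0.00177, 0.0143 and 0.00888 when 1 library was left out. LAMA5 was called in 16 of 20 and LAMA2 in 14 of 20. With the replicate block their adjusted p-values were 0.0971 and 0.123, and 4 chains and 798 genes were called, LAMB3 among the chains (adjusted p = 0.0350); the replicate block ended the calls of LAMA5 and LAMA2 and of no other chain. Without a trend in eBayes LAMA2 had an adjusted p of 0.0510. Called genes numbered 3210 with DESeq2, 4483 without the 2 libraries that stand apart, and from 796 to 2181 when 1 library was left out. Called chains numbered 12 without those 2 libraries and from 3 to 6 when 1 library was left out, with 3 without wild-type replicate 1 or wild-type replicate 3. The members' median was 0.0595 with equal totals.

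Changes near 0 changed sign. With equal totals ITGA5 was -0.0212, and the log2 ratios of the summed integrin alpha and laminin beta values were -0.0049 and -0.12. With the length trend removed ITGAV was 0.0603. Leaving out 1 library, log2 fold changes ran from -0.25 to 0.18 for ITGAV, from -0.52 to 0.14 for LAMB1, from -0.20 to 0.66 for ITGA5 and from -0.0848 to 0.65 for LAMB2, and the laminin beta ratio ran from -0.15 to 0.45. The ITGA5 share changed by between -6.53 and 5.99 percentage points when 1 library was left out, and by 0.65 with the union of annotated exons as length. Shares and class sums could not gain or lose a call, because their exact permutation p cannot fall below 0.1. For counts of called genes and the members' median, the same meant within a set margin, not a side of the threshold. Over all results and settings 499 of 549 alternatives were scored the same, 11 counts or medians moved, 19 changed sign, 10 gained and 10 lost a call. The cause was not tested. With 3 libraries per genotype, the SEs of tested chains ran up to 1.29 on the log2 scale.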

Other observations

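Genes within 1 Mb of the 5 called chains were tabulated as values. Near ITGA1, 6 other genes were tested and 3 of them (FST, MOCS2 and PELO) were called higher, with a median log2 fold change of 0.72. Near LAMA5, 21 were tested and 4 (ADRM1, CDH4, COL9A3 and SLC17A9) were called higher, with a median of 0.36. LAMA2 had 4 tested neighbours with a median of -1.21, of which PTPRK was called lower. LAMA4 had 7 with a median of -0.13, of which REV3L was called lower, and none of the 3 neighbours of LAMA1 was called (limma adjusted p under 0.05 in each case). Beside these stand 5.97% of all genes tested called higher and 6.79% called lower. PELO and ADRM1 share exonic bases with ITGA1 and LAMA5, and whether reads were shared was not tested. ITGA2, the integrin gene next to ITGA1 on chromosome 5, had a log2 fold change of 0.42 (limma adjusted p = 0.768).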
